A study of Homo sapiens with 10 samples.

Results

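The ERBB receptor tyrosine kinases (EGFR, ERBB2, ERBB3 and ERBB4) and 6 of their ligands (HBEGF, AREG, EREG, TGFA, BTC and EGF) were followed in 2 human breast cancer cell lines. The members were taken by gene name: of the 10 listed genes, 9 had a probe set annotated to them, among 18417 genes measured, and each of the 9 had a single probe set. AREG had none listed and has no values here. SKBR3 and MDA-468 are established breast cancer lines, described in the labels as expressing mutant p53. Cells were transfected with control RNA duplexes (siControl) or with duplexes against AATF, the gene whose product is called Che-1 (siChe-1), and total RNA was taken 48 h later for Affymetrix whole-transcript arrays. SKBR3 had 2 arrays with siControl and 2 with siChe-1, and MDA-468 had 3 and 3, which makes 10 arrays. The labels do not tell whether the arrays of a group stem from separate cultures; the spread behind the p-values may thus be technical only. The labels name a single reagent against AATF and no untransfected cells, so a response to the loss of AATF and a response to the duplex itself cannot be told apart.

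ERBB ligands bind the extracellular part of the receptors and bring them together in pairs, which turns on their kinases and, through adaptors, the RAS-ERK and PI3K-AKT cascades. ERBB2 has no known ligand of its own and pairs with ligand-bound partners; ERBB3 has little kinase activity and works mainly in pairs with the others. The ligands are made as membrane-anchored precursors that proteases of the ADAM family release. HBEGF, BTC and EREG bind both EGFR and ERBB4, whereas EGF, TGFA and AREG bind EGFR. Amplification of ERBB2 defines a subtype of breast cancer of which SKBR3 is a standard model, and MDA-468 is a basal-like line known for amplified EGFR.

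The stretches of 250 bases before the annotated start of the 2 ligands that rose in both lines, of the receptor with the larger rise and of EGF, whose change differed between the lines, are shown so that their base composition can be compared. They are from the RefSeq promoter table (GRCh38.p14), 5′ to 3′ on the strand of the gene. Capitals mark matches, on either strand, to a GC box (GGGCGG), an NF-kappaB site, an AP-1 site (TGANTCA) or a TATA box (TATAAA). The NF-kappaB pattern was a permissive one: GGG, A or G, 2 bases of any kind, 2 bases that are each C or T, and CC. Matches that overlap run on in capitals.
HBEGF, chr5:140346604-140346853, minus strand: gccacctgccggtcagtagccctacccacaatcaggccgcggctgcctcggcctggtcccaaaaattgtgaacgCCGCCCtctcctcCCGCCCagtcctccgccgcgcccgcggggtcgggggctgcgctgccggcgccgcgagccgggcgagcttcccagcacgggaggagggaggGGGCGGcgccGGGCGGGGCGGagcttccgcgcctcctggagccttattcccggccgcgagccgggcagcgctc
BTC, chr4:74794524-74794773, minus strand: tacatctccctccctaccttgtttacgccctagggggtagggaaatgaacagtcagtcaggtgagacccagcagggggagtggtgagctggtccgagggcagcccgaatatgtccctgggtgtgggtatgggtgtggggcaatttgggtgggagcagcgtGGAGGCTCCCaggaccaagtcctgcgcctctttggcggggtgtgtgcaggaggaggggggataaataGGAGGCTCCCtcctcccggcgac
EGFR, chr7:55018767-55019016, plus strand: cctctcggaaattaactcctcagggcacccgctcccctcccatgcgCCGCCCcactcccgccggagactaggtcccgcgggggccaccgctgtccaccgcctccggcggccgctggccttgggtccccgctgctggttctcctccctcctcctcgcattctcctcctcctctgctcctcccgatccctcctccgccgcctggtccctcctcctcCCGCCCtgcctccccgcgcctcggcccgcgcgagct
EGF, chr4:109912633-109912882, plus strand: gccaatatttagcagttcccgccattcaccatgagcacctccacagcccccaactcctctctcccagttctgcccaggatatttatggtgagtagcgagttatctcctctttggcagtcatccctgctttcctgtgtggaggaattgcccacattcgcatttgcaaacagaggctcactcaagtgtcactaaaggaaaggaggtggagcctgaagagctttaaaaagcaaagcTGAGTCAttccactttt

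The HBEGF stretch held 76.4% G and C and 5 GC boxes, the EGFR stretch 73.6% and 2 GC boxes, the BTC stretch 62% and 2 NF-kappaB matches, and the EGF stretch 48.8% and 1 AP-1 match that lies 17 to 11 bases before the start. The median over all 35116 entries of the table was 58% G and C. The table held 11 entries for 9 of the 10 listed genes, among them AREG, which has no values here, and none for ERBB3. GC boxes were found in 5 of the 11 entries that exist for 9 members, against 42.6% of all entries; AP-1 matches in 3, against 6.57%; NF-kappaB matches in 2, against 9.96%; TATA boxes in 3, against 10.7%; and the ISRE pair GAAANNGAAA in 0, against 3.02%. The second EGFR entry, at an internal start, held 2 AP-1 and 2 TATA matches. These are matches of letters in short windows, and binding was not measured.

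The targeted gene, AATF, had lower values with siChe-1 in both lines, without overlap between the groups. Its log2 values were 8.69 and 8.68 with siControl and 8.09 and 7.97 with siChe-1 in SKBR3, and 8.86, 8.87 and 8.90 against 7.08, 7.13 and 7.29 in MDA-468. The signal with siChe-1 was 63.3% of control in SKBR3 (limma adjusted p = 0.00153; 0.0558 with SKBR3 fitted alone) and 30.5% in MDA-468 (limma adjusted p = 3.45e-08). Replicate arrays correlated with r from 0.987 to 0.997 over the genes measured, the lowest value being that of the SKBR3 siChe-1 pair. The median log2 value of an array was 6.36 to 6.45 for SKBR3 and 6.87 to 6.94 for MDA-468. Levels of the lines were therefore compared after quantile normalization over all arrays, and responses to siChe-1 within each line on the deposited values. The keratins of simple epithelium KRT8, KRT18 and KRT19 stood at log2 values of 12.48 to 12.98 in the siControl groups of both lines, and the basal keratin KRT5 at 7.58 in SKBR3 and 12.47 in MDA-468. The other markers were mixed: the basal keratin KRT14 stood at 7.52 and 8.08 and was not called between the lines (limma adjusted p = 0.708). The basal markers CDH3 (5.2 and 9.55) and KRT16 (6.7 and 8.07) were, like KRT5, called lower in SKBR3. The luminal markers CDH1 (5.12 and 10.2), GATA3 (6.27 and 9.29), EPCAM (11.59 and 12.47) and ESR1 (5.03 and 6.32) were called lower in SKBR3 than in MDA-468. FOXA1 (0.63 after quantile normalization, limma adjusted p = 0.000549) and KRT18 (0.24, limma adjusted p = 0.0226) were called higher in SKBR3. KRT8 and KRT19 were not called. The immune list had PTPRC and CD3E below the 30th percentile level of mean log2 value, 6.03, in every group, while CD14 stood at 9.51 in MDA-468 siControl; the 3 endothelial markers were below that level in every group.

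**Figure D1:**
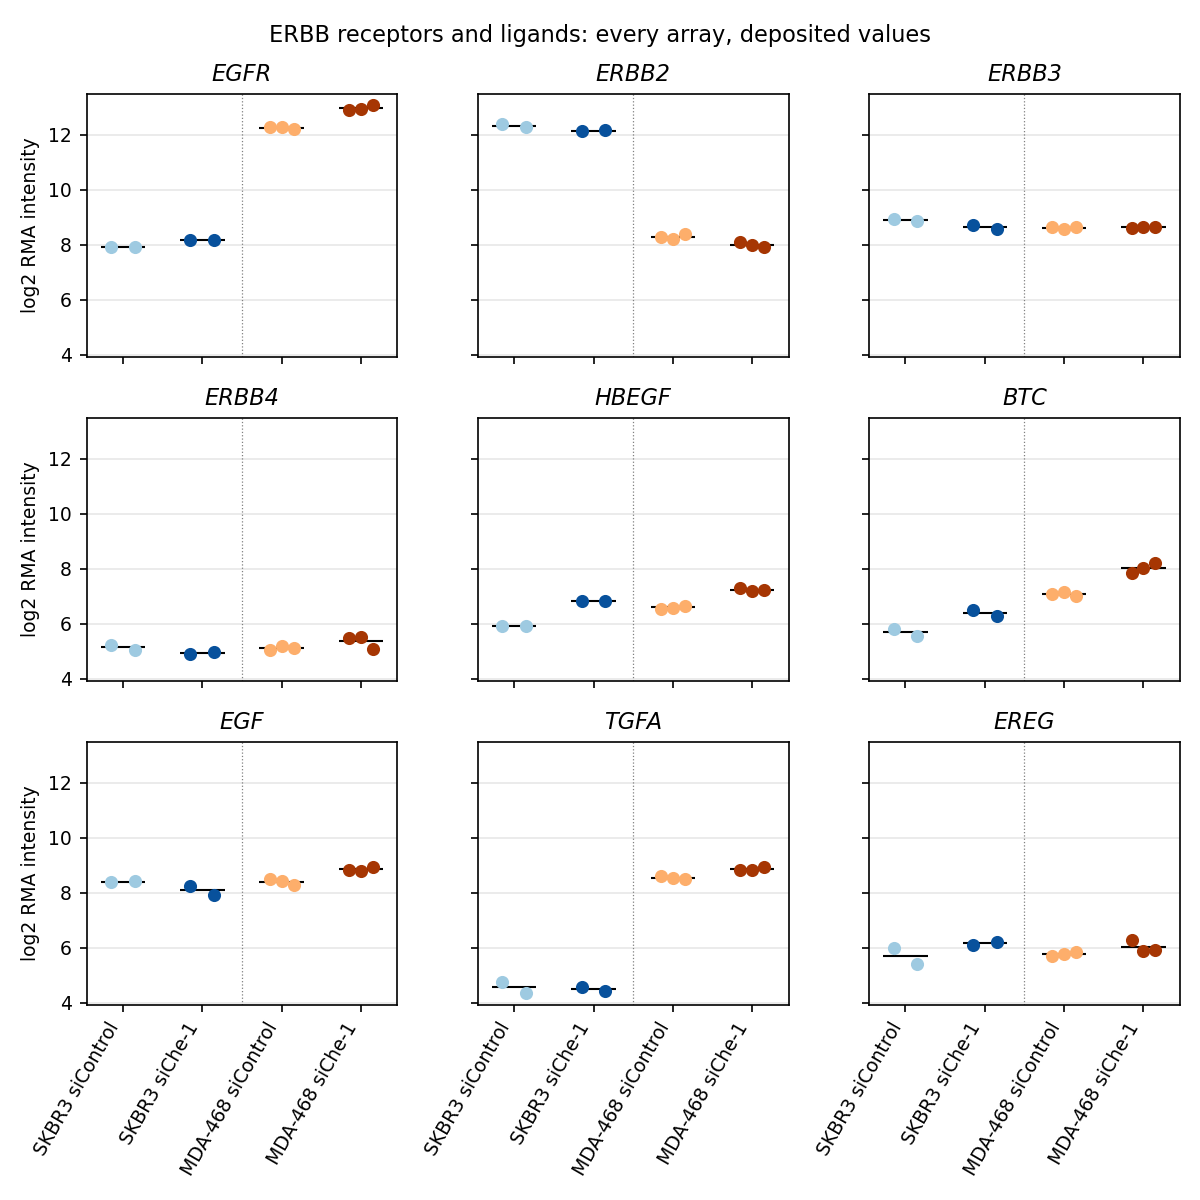
Log2 RMA intensity (deposited values, vertical axis) of the 9 measured members on every array, by group; each point is 1 array and each bar a group mean. Levels are to be compared within a panel only. EGFR is high in MDA-468, from 12.20 to 13.07, and ERBB2 is high in SKBR3, from 12.15 to 12.40.

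The first comparison asked how the lines differ before AATF is targeted. ERBB2 was higher in SKBR3, by 20.8-fold, and EGFR was higher in MDA-468, by 14.6-fold. TGFA was also higher in MDA-468, against a SKBR3 signal near the low end of the array. Of the 9 members, 5 were called higher in SKBR3 and 3 lower on the quantile-normalized scale; over all genes 37.7% were called higher and 27% lower, 64.7% together, so most genes differ between the lines and a call by itself marks little. On that scale 5 members were higher and 4 lower without overlap of the groups, against 46.6% and 32.4% of all genes. In such bulk RNA, fewer cells of a kind and less RNA per cell cannot be told apart. With the deposited values the split over all genes turned to 1664 higher and 10196 lower, and the median difference over all genes moved from 0.12 (log2, quantile) to -0.38 (deposited) or 0.25 (median-centred). Differences near this range depend on the scale.

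ERBB2, the receptor without a ligand, stood at 12.40 and 12.27 on the SKBR3 siControl arrays and at 8.27, 8.20 and 8.40 on those of MDA-468 (deposited log2 values). The groups did not overlap, and ERBB2 lay above 99.7% of genes on both SKBR3 arrays but above 62.1% to 65.4% in MDA-468. The difference was 4.38 ± 0.089 (log2, SE; 95% interval 4.18 to 4.58; limma adjusted p = 4.09e-11), a 20.8-fold higher signal and the 22nd largest of 18417 genes. It was 4.04 to 4.67 over the 17 alternatives. The 4 neighbours GRB7, STARD3, PGAP3 and MIEN1 were all called higher in SKBR3, with a median difference of 2.76.

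EGFR ran the other way. Its siControl values were 7.91 on both SKBR3 arrays and 12.27, 12.27 and 12.20 in MDA-468, where it lay above 99.5% of genes on every array. The difference was -3.87 ± 0.076 (95% interval -4.04 to -3.70; limma adjusted p = 3.56e-11), a 14.6-fold higher signal in MDA-468, and it ranked 112th on that side. In SKBR3 EGFR still lay above 67.5% to 67.9% of genes.

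TGFA, a ligand of EGFR, was near the low end of the array in SKBR3, at 4.77 and 4.37, and stood at 8.60, 8.56 and 8.49 in MDA-468. The line with high EGFR thus also had the higher TGFA signal (limma adjusted p = 1e-09). The fitted log2 difference was -3.42 ± 0.11, and -3.26 without SKBR3 siControl replicate 2. No fold is drawn from it, since the SKBR3 values lie below the 30th percentile level of 6.03 and their signal over background is unknown. BTC, or betacellulin, had 5.82 and 5.56 in SKBR3 against 7.07, 7.17 and 7.03 in MDA-468. The BTC groups did not overlap, and its difference of -0.84 ± 0.13 (limma adjusted p = 0.000243) was called under all 16 alternatives that could be fitted.

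ERBB3, the partner with little kinase activity, had closer levels, with 8.95 and 8.86 in SKBR3 and 8.66, 8.56 and 8.64 in MDA-468. It was called higher in SKBR3 on every scale, by 0.91 ± 0.073 after quantile normalization (limma adjusted p = 1.21e-06) and by 0.29 on the deposited scale (limma adjusted p = 0.0144). Its rank showed the same order, with ERBB3 above 82.7% to 84.2% of genes in SKBR3 and above 68.2% to 69.4% in MDA-468.

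For the remaining 4 members the scale decided the call. EGF had 8.39 and 8.44 in SKBR3 and 8.50, 8.44 and 8.28 in MDA-468; the difference was 0.64 after quantile normalization (limma adjusted p = 0.000132) and 0.01 as deposited (limma adjusted p = 0.943). ERBB4, at 5.24 and 5.05 in SKBR3 and 5.04 to 5.20 in MDA-468, differed by 0.46 (limma adjusted p = 0.00258) and by 0.02 as deposited (limma adjusted p = 0.901). It lay above only 16% to 23% of genes on the siControl arrays. EREG, which encodes epiregulin, differed by 0.39 (limma adjusted p = 0.0234) and by -0.08 as deposited (limma adjusted p = 0.676), and without SKBR3 siControl replicate 1, MDA-468 siControl replicate 1 or MDA-468 siControl replicate 2 the call was lost. HBEGF differed by -0.17 (limma adjusted p = 0.0806) and by -0.67 as deposited (limma adjusted p = 2.74e-05).

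**Figure D2:**
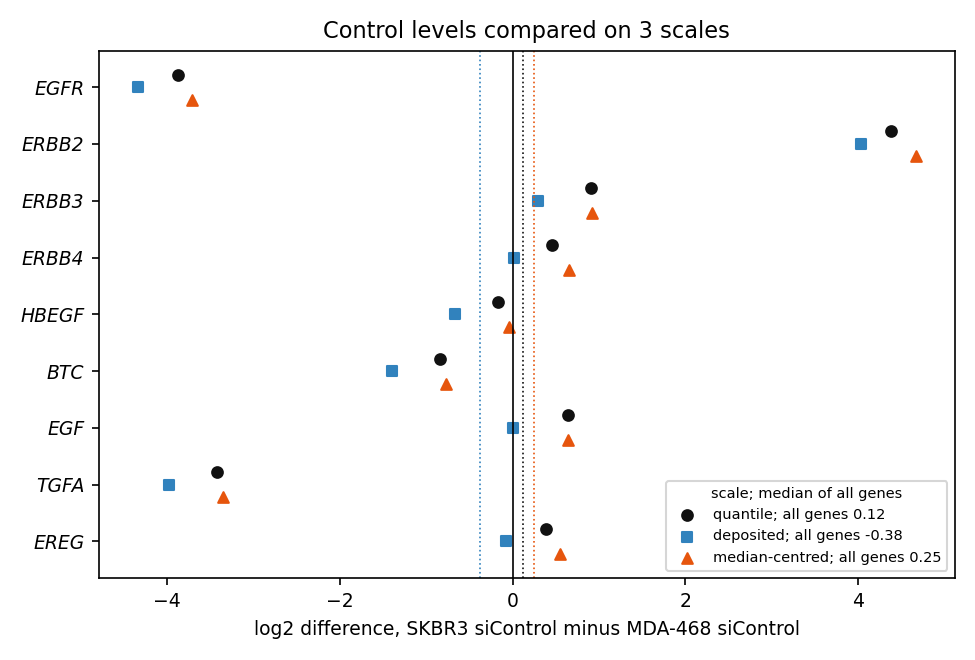
Log2 difference between the siControl groups, SKBR3 minus MDA-468 (horizontal axis), of each member on 3 scales; dotted lines mark the median over all genes on each scale. ERBB2, EGFR, TGFA and BTC keep their side on all scales, whereas EREG is at 0.39 after quantile normalization and at -0.08 as deposited.

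The second comparison asked which members respond to siChe-1 in SKBR3. The ligands HBEGF and BTC rose, by 1.88-fold and 1.64-fold, and no receptor was called. Both ligands had siControl values below the 30th percentile level of 6.03. Signal over background is unknown there, so these folds are those of the array signal only. Of 9 members, 2 were called higher and 0 lower, while 4.69% of all genes were called higher and 9.86% lower, 14.5% together. The groups did not overlap for 4 members higher and 4 lower with siChe-1, against 15.8% and 29.7% of all genes. The shares over all genes depend on the fit: 863 genes were called higher and 1815 lower here, 454 and 165 with SKBR3 fitted alone, and 554 and 412 with the replicate block. The count of lower genes ran from 399 without SKBR3 siControl replicate 2 to 3632 without SKBR3 siChe-1 replicate 1, and was 921 without siControl replicate 1 and 663 without siChe-1 replicate 2. At an unadjusted p below 0.05, 5049 of all genes passed. The median change of the 9 members was -0.06, against -0.03 over all genes.

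HBEGF, the heparin-binding ligand, had 5.91 and 5.94 with siControl and 6.83 and 6.84 with siChe-1. The gap between the groups was far wider than the spread within either. The change was 0.91 ± 0.094 (95% interval 0.71 to 1.12; limma adjusted p = 6.26e-05), the 362nd largest rise, and it lay between 0.90 and 0.96 and was called under all 18 alternatives. HBEGF lay above 33.5% to 35.8% of genes with siControl and above 49.6% to 50.7% with siChe-1.

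BTC had 5.82 and 5.56 with siControl and 6.5 and 6.3 with siChe-1. Both siChe-1 arrays were higher, with a larger spread than for HBEGF. The change was 0.71 ± 0.14 (95% interval 0.41 to 1.01; limma adjusted p = 0.00599). The call was lost with SKBR3 fitted alone (limma adjusted p = 0.0611) and without SKBR3 siControl replicate 2 (0.58, limma adjusted p = 0.0727).

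EGFR had 7.91 on both siControl arrays and 8.19 and 8.17 with siChe-1. The groups did not overlap, but the change of 0.27 ± 0.095 (95% interval 0.06 to 0.48) missed the threshold over all genes (limma adjusted p = 0.0864). It passed when genes below the 30th or the 50th percentile of mean level were dropped (limma adjusted p = 0.0482 and 0.028), after quantile normalization (0.38, adjusted p = 0.0138) and with a trended, robust limma prior (0.0267), so EGFR in SKBR3 lay at the edge of the test.

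The other receptors were lower in SKBR3 without being called. ERBB2 went from 12.40 and 12.27 to 12.15 and 12.16 (-0.18, 95% interval -0.42 to 0.06, limma adjusted p = 0.336). ERBB3 went from 8.95 and 8.86 to 8.72 and 8.56 (-0.27, 95% interval -0.48 to -0.05, limma adjusted p = 0.0998); it passed when genes below the 50th percentile of mean level were dropped (limma adjusted p = 0.0345) and without SKBR3 siChe-1 replicate 1 (-0.35, adjusted p = 0.0296). ERBB4 went from 5.24 and 5.05 to 4.90 and 4.97 (limma adjusted p = 0.403).

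Among the other ligands, EGF went from 8.39 and 8.44 to 8.27 and 7.94, with siChe-1 replicate 2 the lower. Its change of -0.31 (95% interval -0.59 to -0.03) was not called (limma adjusted p = 0.138) except without SKBR3 siChe-1 replicate 1 (-0.48, adjusted p = 0.0168), and without SKBR3 siChe-1 replicate 2 it was -0.14 (adjusted p = 0.569). EREG had siControl values of 5.98 and 5.41, which lie further apart than any other pair of SKBR3 siControl values here, and 6.11 and 6.22 with siChe-1 (0.47, limma adjusted p = 0.108); without SKBR3 siControl replicate 1 the change was 0.75 (adjusted p = 0.0259) and without SKBR3 siControl replicate 2 it was 0.19 (adjusted p = 0.647). TGFA, with 4.77 and 4.37 against 4.58 and 4.44, overlapped between the groups (-0.06, limma adjusted p = 0.843).

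The third comparison was the same contrast in MDA-468. Here 4 ligands and EGFR rose and ERBB2 fell: BTC by 1.93-fold, EGFR by 1.65-fold, HBEGF by 1.56-fold, EGF by 1.37-fold and TGFA by 1.24-fold, with ERBB2 at 82% of control. These 5 members called higher and 1 lower compare with 12.4% of all genes called higher and 19.1% lower, 31.5% together. The groups did not overlap for 6 members higher and 1 lower, against 20.9% and 27.6% of all genes, and the median change of the 9 members was 0.31 against 0.02 over all genes. At an unadjusted p below 0.05, 7225 of all genes passed.

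BTC had 7.07, 7.17 and 7.03 with siControl and 7.86, 8.04 and 8.22 with siChe-1. Every siChe-1 array was higher. The change was 0.95 ± 0.11 (95% interval 0.70 to 1.20; limma adjusted p = 5.67e-05) and was called under all 17 alternatives. BTC was also the member with the largest change in MDA-468.

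EGFR, already among the brightest genes of the line, rose further, from 12.27, 12.27 and 12.20 to 12.91, 12.93 and 13.07. Its change was 0.72 ± 0.078 (95% interval 0.55 to 0.89; limma adjusted p = 2.67e-05), called under all 18 alternatives with values from 0.67 to 0.80. It then lay above 99.9% of genes on each siChe-1 array.

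HBEGF had 6.55, 6.58 and 6.66 with siControl and 7.31, 7.19 and 7.22 with siChe-1. The groups did not overlap, and the change was 0.64 ± 0.077 (95% interval 0.47 to 0.81; limma adjusted p = 5.97e-05). EGF had 8.50, 8.44 and 8.28 against 8.84, 8.79 and 8.96, all higher with siChe-1 (0.45 ± 0.10, 95% interval 0.23 to 0.68, limma adjusted p = 0.00551). HBEGF and EGF were both called under every alternative fitted, 17 and 18 of them.

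TGFA and ERBB2 changed less. TGFA had 8.60, 8.56 and 8.49 against 8.83, 8.83 and 8.93, without overlap (0.31 ± 0.10, 95% interval 0.08 to 0.54, limma adjusted p = 0.0398). Its call was lost when any of the 6 MDA-468 arrays was left out (0.28 to 0.34) and with the replicate block (limma adjusted p = 0.067). ERBB2 had 8.27, 8.20 and 8.40 against 8.09, 8.01 and 7.91, also without overlap (-0.29 ± 0.089, 95% interval -0.48 to -0.09, limma adjusted p = 0.0276). This call was lost without MDA-468 siControl replicate 1 (-0.30) or 3 (-0.23) or siChe-1 replicate 2 (-0.29) or 3 (-0.24), and with the replicate block (limma adjusted p = 0.102).

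ERBB3 stayed close to its control values in MDA-468, with 8.66, 8.56 and 8.64 against 8.61, 8.65 and 8.65 (0.02, 95% interval -0.16 to 0.19, limma adjusted p = 0.906). ERBB4 had 5.04, 5.20 and 5.13 against 5.47, 5.54 and 5.10, the last of which overlapped the controls (0.25, limma adjusted p = 0.141); without MDA-468 siChe-1 replicate 3 the change was 0.38 (adjusted p = 0.0161). EREG had 5.71, 5.78 and 5.84 against 6.30, 5.90 and 5.92, without overlap, but its change of 0.26 was not called (limma adjusted p = 0.212).

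**Figure D3:**
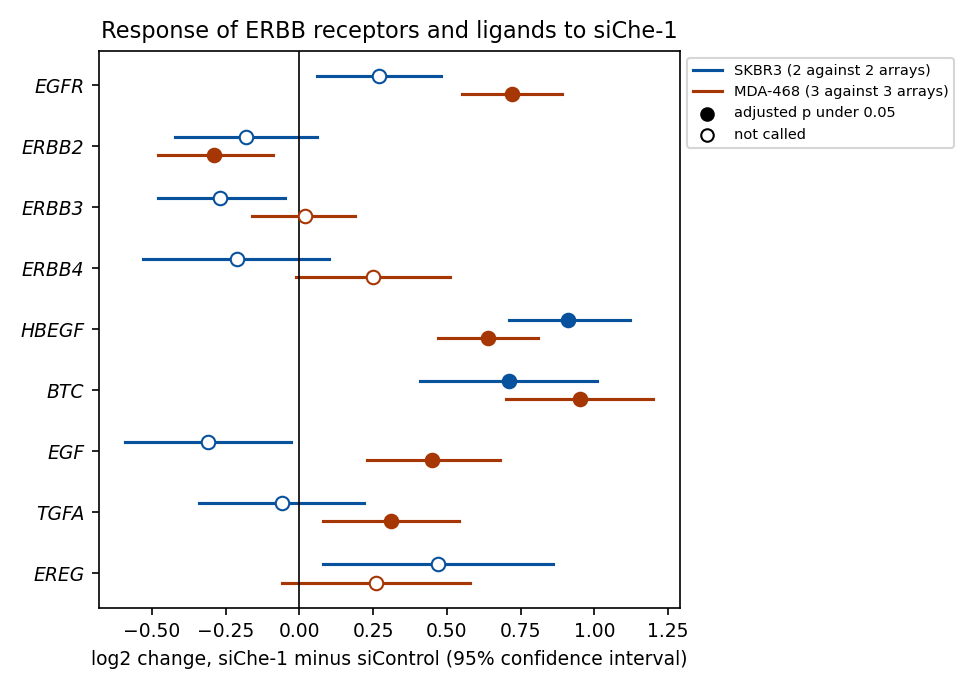
Log2 change with siChe-1 (horizontal axis) of each member in SKBR3 (2 against 2 arrays) and MDA-468 (3 against 3 arrays), with 95% confidence intervals of the limma fit; filled points have an adjusted p under 0.05. HBEGF and BTC are to the right of 0 in both lines, and EGF is at -0.31 in SKBR3 and 0.45 in MDA-468.

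Set side by side, HBEGF and BTC were the members called higher in both lines, where 3.25% of all genes were. No member was called lower in both, where 5.29% of all genes were. The changes of the lines were compared directly with the interaction term of the same fit, by which 12.5% of all genes differed, 5.58% with the higher change in SKBR3 and 6.88% with the lower; of the members 0 and 2 did. EGF differed, with a change 0.76 ± 0.16 log2 units lower in SKBR3 than in MDA-468 (95% interval -1.12 to -0.40; limma adjusted p = 0.0112). The call was lost with the replicate block (adjusted p = 0.0708) and without SKBR3 siControl replicate 2 (adjusted p = 0.0501). For EGF every siChe-1 array was below every siControl array in SKBR3 and above in MDA-468. EGFR differed by -0.45 ± 0.12 (95% interval -0.72 to -0.18; limma adjusted p = 0.0342), rising more in MDA-468, but the call was kept in 9 of 18 alternatives and lost with the replicate block (limma adjusted p = 0.155). HBEGF (0.27, 95% interval 0.00 to 0.54, limma adjusted p = 0.19; 0.38 and called after quantile normalization) and BTC (-0.24, 95% interval -0.63 to 0.15, limma adjusted p = 0.482) were not called for a difference between the lines. The same held for ERBB2 (0.11), ERBB3 (-0.28), ERBB4 (-0.46), TGFA (-0.37) and EREG (0.21), with limma adjusted p from 0.141 to 0.727. AATF itself fell less in SKBR3, with a change 1.05 ± 0.13 log2 units higher than in MDA-468 (limma adjusted p = 0.000371). The part of this unequal fall in the differences between the lines was not tested.

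Across the 4 groups, HBEGF and BTC were each lowest in SKBR3 siControl on the quantile-normalized scale. HBEGF stood at 6.25 ± 0.10 (SD, n = 2) in SKBR3 siControl, 6.42 ± 0.031 (SD, n = 3) in MDA-468 siControl, 7.0 ± 0.045 (SD, n = 3) in MDA-468 siChe-1 and 7.21 ± 0.047 (SD, n = 2) in SKBR3 siChe-1. The siControl groups of HBEGF were not called as different by the test given above. BTC stood at 6.01 ± 0.11 (SD, n = 2), then 6.71 ± 0.26 (SD, n = 2) in SKBR3 siChe-1, 6.86 ± 0.071 (SD, n = 3) in MDA-468 siControl and 7.79 ± 0.19 (SD, n = 3) in MDA-468 siChe-1; the middle groups lay within their spread of each other on this scale. On the deposited scale these were apart, at 6.4 ± 0.14 and 7.09 ± 0.073, and HBEGF was highest in MDA-468 siChe-1, at 7.24 against 6.84 in SKBR3 siChe-1. EGFR stood at 8.27 and 8.64 in SKBR3 siControl and siChe-1 and at 12.13 and 12.93 in MDA-468.

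The genes most like a member over the 10 arrays were taken by Euclidean distance of log2 values centred per gene. For HBEGF these were ADAP1 (distance 0.376), TLE1 (0.377) and GADD45B (0.414), which changed by 0.60, 0.63 and 0.75 in SKBR3 and 0.57, 0.56 and 0.53 in MDA-468. For EGFR they were L3MBTL4 (0.313), RNF217 (0.355) and MAN1A1 (0.357), and for ERBB2 they were MT1G (0.432), FAR2 (0.547) and LCP1 (0.719). Between the siControl groups the genes near EGFR differed by -4.57 to -4.11 and those near ERBB2 by 3.95 to 4.36 (deposited log2 scale), next to -4.34 for EGFR and 4.04 for ERBB2. All these genes were picked by the same values, so their closeness to the member follows from the choice.

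In EPGN, EREG, AREG and BTC, chromosome 4 carries a row of adjacent ligand genes, in this order in the RefSeq gene table. EPGN, which encodes epigen, rose in MDA-468 (0.76 ± 0.14, limma adjusted p = 0.00117) and was not called in SKBR3 (0.15, limma adjusted p = 0.66). Thus BTC was called in both lines, EPGN in MDA-468 and EREG in neither; the EPGN changes were not called as different between the lines (-0.61, limma adjusted p = 0.0942). Among the neuregulins, ligands of ERBB3 and ERBB4, NRG2 rose in both lines (0.62 ± 0.12, limma adjusted p = 0.00685, and 0.48 ± 0.10, limma adjusted p = 0.00344), while NRG1, NRG3 and NRG4 were not called in either. Of the 5 further ligands, 1 therefore rose in SKBR3 and 2 in MDA-468, where 4.69% and 12.4% of all genes rose. With 5 genes, no share is read from these counts.

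Feedback inhibitors included the largest rise and the largest fall among the listed pathway genes in MDA-468. Of 14 genes listed for feedback inhibition or receptor turnover, 8 rose and 3 fell in MDA-468, with a median change of 0.30 against 0.02 over all genes. In SKBR3, 3 rose and 2 fell, with a median of -0.08 against -0.03. Of all genes, 12.4% rose and 19.1% fell in MDA-468, and 4.69% rose and 9.86% fell in SKBR3. SPRY2 and SPRY4, Sprouty proteins that damp RAS-ERK signalling, rose by 1.90 ± 0.097 (limma adjusted p = 5.08e-08) and 1.05 ± 0.083 (limma adjusted p = 2.35e-06) in MDA-468 and by 0.55 ± 0.12 (limma adjusted p = 0.0104) and 0.75 ± 0.10 (limma adjusted p = 0.000557) in SKBR3. DUSP5, a phosphatase of ERK, rose by 0.68 in SKBR3 (limma adjusted p = 0.0012) and by 0.72 in MDA-468 (limma adjusted p = 4.78e-05).

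ERRFI1, which encodes the EGFR inhibitor MIG6, rose by 1.21 ± 0.088 in MDA-468 (limma adjusted p = 1.07e-06) and had a change of -0.03 in SKBR3 (limma adjusted p = 0.92); the changes differed by -1.24 (limma adjusted p = 0.000186). LRIG1, a membrane protein that promotes receptor degradation, fell by 1.16 in MDA-468 (limma adjusted p = 5.33e-06) and had -0.12 in SKBR3 (limma adjusted p = 0.628), a difference of 1.04 (limma adjusted p = 0.00157). CBLB, a ubiquitin ligase of activated receptors that was singled out after its values were seen, fell by 1.22 in MDA-468 (limma adjusted p = 5.42e-06; difference between the lines 1.01, limma adjusted p = 0.00262). SPRED1 rose in MDA-468 (0.56, limma adjusted p = 0.000524) and fell in SKBR3 (-0.48, limma adjusted p = 0.0143), a difference of -1.04 (limma adjusted p = 0.000687). AATF fell less in SKBR3, as given above, and its part in these differences was not tested.

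ERK output genes rose in 4 of 8 in SKBR3 and 6 of 8 in MDA-468, and none fell, where 4.69% and 12.4% of all genes rose. EGR1, an immediate early transcription factor, rose by 1.37 ± 0.15 (limma adjusted p = 0.000102) and 1.34 ± 0.12 (limma adjusted p = 7.34e-06). MYC rose by 0.63 (limma adjusted p = 0.00121) and 0.94 (limma adjusted p = 2.98e-06), and PHLDA1 by 0.42 (limma adjusted p = 0.0377) and 0.70 (limma adjusted p = 0.000193). Not called were FOSL1 (0.22), ETV4 (0.19), ETV5 (0.19) and CCND1 (0.39) in SKBR3, and ETV4 (-0.03) and CCND1 (0.27) in MDA-468. The list's median change was 0.41 in SKBR3 and 0.47 in MDA-468. The list is short, with 8 genes, and was chosen with earlier results of these data known, so no share is read from it. These genes respond to many signals besides ERBB receptors.

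The lists of kinases, PI3K-AKT genes and adaptors are also short (5, 6 and 9 measured genes), so no share is read from them either. Of all genes, 14.5% were called in SKBR3 and 31.5% in MDA-468. Among 5 measured kinases of the RAS-RAF-ERK list none was called in SKBR3, and in MDA-468 MAP2K1 rose by 0.29 (limma adjusted p = 0.0244) and ARAF fell by 0.42 (limma adjusted p = 0.00407). Among 6 measured PI3K-AKT genes PIK3R1, the regulatory subunit of PI3K, rose in both lines (0.98, limma adjusted p = 3.57e-05, and 0.59, limma adjusted p = 0.000127), and PIK3CB fell in SKBR3 (-0.62, limma adjusted p = 0.0118). Among 9 adaptors PTPN11 fell in SKBR3 (-0.46, limma adjusted p = 0.00719), while in MDA-468 CRKL (0.30, limma adjusted p = 0.00951) and GAB1 (0.40, limma adjusted p = 0.014) rose and GRB2 fell (-0.25, limma adjusted p = 0.0205). Of 7 ligand-releasing proteases and their regulators, RHBDF2 rose in SKBR3 (0.37, limma adjusted p = 0.0434), and in MDA-468 ADAM9 rose (0.54, limma adjusted p = 0.000867) and ADAM15 fell (-0.40, limma adjusted p = 0.00971).

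**Figure D4:**
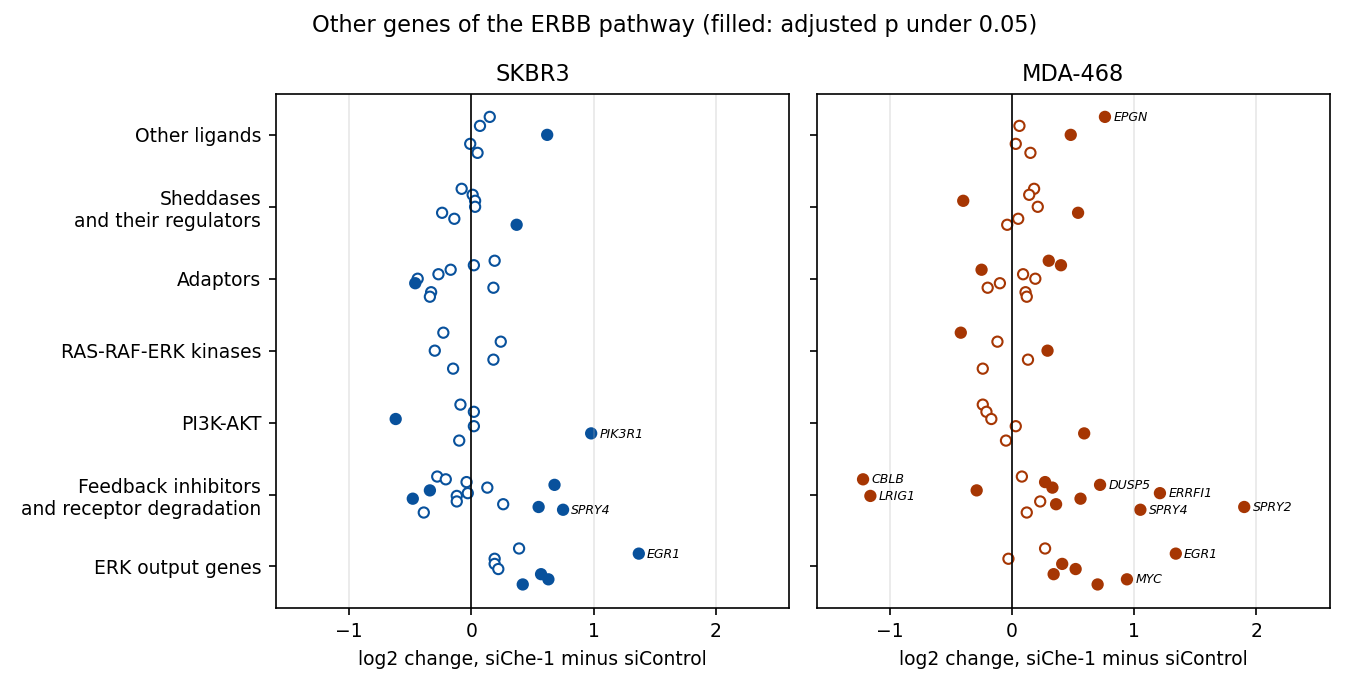
Log2 change with siChe-1 (horizontal axis) of the other pathway genes, 1 point per gene, by list, in SKBR3 (left) and MDA-468 (right); filled points have an adjusted p under 0.05, and most called genes with changes of 0.7 or more are named. Feedback inhibitors spread widest in MDA-468, from -1.22 (CBLB) to 1.90 (SPRY2).

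Markers of other cell types and states changed beside these genes. The 4 measured basal markers (KRT5, KRT14, KRT16 and CDH3) rose in MDA-468, with a median of 1.59. Their summed linear signal in that line was 6450 to 7270 with siControl and 13800 to 13900 with siChe-1. In SKBR3 1 of the 4 rose, and the sum was 496 to 538 with siControl and 615 to 732 with siChe-1. Of 8 luminal markers 2 fell in MDA-468 and none was called in SKBR3. Of the 3 measured immune markers, CD14 rose in both lines (0.53, limma adjusted p = 0.0248, and 0.64, limma adjusted p = 0.000938), and PTPRC, below the 30th percentile level, fell in MDA-468 (-0.33, limma adjusted p = 0.0302). In SKBR3 CD14 also lay below that level, at 5.42 with siControl and 5.94 with siChe-1. Of 5 fibroblast markers COL1A1 rose in MDA-468 (0.34, limma adjusted p = 0.0295) and none was called in SKBR3; the 3 endothelial markers were not called in either line. The part of these shifts in the changes of the ERBB genes was not tested.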

How the data were processed

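Per the submitters' processing notes, the authors summarised probe sets by RMA (Expression Console), which gives log2 intensities. Versions, build and which arrays were normalized jointly: not given in the sources used here. Of 33297 probe sets, 19460 had 1 gene symbol, 1754 several and 12083 none; 19429 of the 19460 were updated through RefSeq gene IDs (GRCh38.p14 table, used for names and gene order). The probe set with the highest mean was kept for the 769 genes with several, giving 18417 genes. One mean per group was fitted over the 10 arrays (limma 3.58.1, R 4.3.3; 6 residual and 5.25 prior degrees of freedom), with Benjamini-Hochberg adjustment over all genes and a threshold of 0.05. No filter was applied, so that all 9 measured members were tested; 7 exceed the 30th percentile level (6.03) and 4 the 50th (7.21). The script was tested on simulated data. The members and lists were chosen with earlier results of these data known. Named genes were the members, AATF, up to 4 called genes per list and line by p, and 3 genes nearest to ERBB2, EGFR and HBEGF. Alternatives were filters, scaling, probe set means, a trended robust prior, single-line fits, a replicate block and each array left out. Precision is limited by the number of arrays; RMA gives no detection call, so signal over background is unknown.

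The replicate number was not used as a pairing in the main fit, and was fitted as a block among the alternatives. Whether same-numbered arrays share a source cannot be told from their deviations, as given with the dependence on processing. With the block, the EGF and EGFR differences between the lines and the TGFA and ERBB2 calls in MDA-468 were lost.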

Additional observations from a re-analysis of the deposited data

Results flagged for a closer look

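The response of EGF to siChe-1 differed between the lines by the interaction term of the fit: the change in SKBR3 was lower than that in MDA-468 by a log2 difference of -0.76 (limma adjusted p = 0.0112). Both SKBR3 siChe-1 arrays lay below their controls, a change that was not called, and the 3 MDA-468 siChe-1 arrays above theirs. The EGF call was kept in 16 of 18 alternatives, and was lost without SKBR3 siControl replicate 2 (-0.74, adjusted p = 0.0501) and with the replicate block (adjusted p = 0.0708). The response of EGFR differed by -0.45 (limma adjusted p = 0.0342), with the larger rise in MDA-468, and was called in 9 of 18 alternatives, with values from -0.48 to -0.40. AATF itself fell less in SKBR3, to 63.3% of control against 30.5% in MDA-468. The part of this unequal fall in the EGF and EGFR differences was not tested.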

How the results depend on the processing

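HBEGF, EGFR, BTC and EGF in MDA-468 and HBEGF in SKBR3 kept their direction and their call under all alternatives run. So did the control differences of ERBB2, EGFR, ERBB3, TGFA and BTC. With a filter at the 50th percentile, where only 4 members remain, 3 members were called in MDA-468 and 4 between the siControl groups, with 3582 genes higher and 3205 lower between the latter; on deposited values these were 1664 and 10196. With SKBR3 fitted alone, 1 member, 454 higher and 165 lower genes were called. Same-numbered arrays deviated from their group means with correlations of -0.49 in SKBR3 and -0.40, -0.01 and -0.23 in MDA-468. Arrays of unlike number gave 0.49 in SKBR3, the mirror value that groups of 2 arrays impose, and -0.17 to 0.37 in MDA-468. Deviations within groups of 2 or 3 arrays cannot show whether arrays share a source. With the replicate block, SKBR3 had 554 higher and 412 lower genes, and the difference between lines 0 members, 426 higher and 491 lower genes. With the SKBR3 numbers crossed, an alternative added after the data were seen, 852 genes were higher and 1896 lower in SKBR3, and 1 member differed between the lines. On deposited values the siControl difference turned for EREG, from 0.39 to -0.08, and for AATF, from 0.45 (limma adjusted p = 0.00178) to -0.19. Directions also turned for changes that were not called: TGFA in SKBR3 was 0.14 without siControl replicate 1 and 0.01 without siChe-1 replicate 2 (leave-one-out range -0.26 to 0.14); EREG differed between lines by -0.08 without SKBR3 siControl replicate 2 (range -0.08 to 0.49); and ERBB3 in MDA-468 was -0.01 without siControl replicate 2 (range -0.01 to 0.04). With calls gained, the difference between lines was -0.57 for TGFA without SKBR3 siControl replicate 2 and -0.59 for ERBB4 without MDA-468 siChe-1 replicate 3. Leaving out each array in turn, which can leave a SKBR3 group with 1 array assumed to vary like the others, gave 1 to 4 members, 562 to 1466 higher and 399 to 3632 lower genes in SKBR3. The lowest counts came without SKBR3 siControl replicate 2 and the highest without SKBR3 siChe-1 replicate 1. The difference between lines then had 1 to 2 members, 593 to 1262 higher and 744 to 2358 lower genes, MDA-468 4 to 6 members and the siControl groups 7 to 8. The causes were not tested. Averaging probe sets moved 1 member value at 2 decimals, that of ERBB2 between the siControl groups, from 4.38 to 4.39.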
